A study of Mus musculus with 31 samples.

Results

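This report concerns the liver transcriptome of 8 athyroid mouse pups that received thyroxine (T4) alone and how it differed from that of 5 control pups with a thyroid. The members were chosen by genotype and treatment, as the 13 libraries of these groups out of 31 in the series. Pups of the T4 group had lost both copies of Pax8, whose product directs thyroid development, as well as Dio1 and Dio2, which encode the type 1 and type 2 deiodinases (genotype Dio1KO/Dio2KO/Pax8KO). Athyroid pups of the same genotype that received vehicle (vehicle, n = 5), T3 (n = 6) or T3+T4 (n = 7) are cited beside them. Control pups lacked Dio1 and Dio2 too, carried a heterozygous Pax8 deletion (Pax8Het) and received vehicle. All were C57Bl/6J pups injected every other day from postnatal day 2 and taken at postnatal day 14. Doses, and whether the deletions affect every tissue, are not given in the sources used here. The comparison asks which liver genes differ from the control level when T4 is the only hormone supplied and neither of these deiodinases is present.

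Thyroxine is the main product of the thyroid and acts largely as a precursor. Type 1 and type 2 deiodinases remove an outer-ring iodine to give T3, which binds the nuclear receptors THRA and THRB with higher affinity than T4 does. The liver expresses mostly THRB and type 1 deiodinase, and there the hormone is known to raise genes of lipid synthesis, cholesterol turnover and Dio1 itself.

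Library totals ran from 4383769 to 6116826 counts in T4 livers and from 4955859 to 5967157 in control livers. By Xist and 4 Y-linked genes, 2 of the 8 T4 livers were female and 6 male, against 4 female and 1 male control livers, so sex and treatment are partly confounded. Skeletal muscle markers averaged at least 5 CPM (counts per unit of library size, with TMM scaling factors from edgeR) in T4 animals 54, 69 and 71 and in 0 of 5 control livers. Pancreatic acinar markers other than Cela1 and Amy2a5 reached that level in 0 of 8 T4 livers and in control animal 47. They also reached it in 2 of 5 vehicle livers, animals 37 and 2019, at means of 21.6 and 7.14 CPM. Muscle markers reached it in 0 of 5 vehicle livers, which were 2 female and 3 male by the sex genes. The labelled sex of T4 animal 54 and of vehicle animal 67 differed from their sex genes. Alb, the albumin gene, averaged 599 CPM in T4 and 603 CPM in control livers. Hepatocyte markers had a median log2 fold change of -0.01. The edgeR quasi-likelihood test described below called 0 of these 11 markers, which is near the 3.54% called over all genes tested. Counts of these and of other abundant genes may be compressed, since 108 genes of the table averaged more than 1 count per exonic base and the highest only 2.41. Later folds of abundant genes, and lists of such genes without calls, carry this limit too. Nothing in the labels says that animals of a group came from separate litters, so p-values measure the spread between these samples.

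The genes removed by design came first. Reads were still assigned to Dio1, Dio2 and Pax8 in every library, and the deleted part of each gene is not given in the labels, so the counts do not check the genotypes. Pax8 had 4 to 28 counts in T4 livers and 5 to 7 in control livers, a log2 fold change of 1.32 ± 0.43 (SE) with an edgeR adjusted p of 0.08. Dio2 averaged 3.09 ± 2.26 CPM in T4 livers (SD, n = 8) and 3.19 ± 0.588 CPM in control livers (SD, n = 5), with an edgeR adjusted p of 0.973. Dio1 transcripts, although the gene is disrupted in every pup, were lower after T4. Dio1 had 18.8, 28.4 and 64.5 CPM as its lowest, median and highest value in the 8 T4 livers, against 148, 142, 204, 203 and 148 CPM in the 5 control livers. Every T4 liver lay below every control liver. The log2 fold change was -2.30 ± 0.26 (edgeR adjusted p = 2.21e-05). Vehicle livers averaged 12.7 ± 4.42 CPM (SD, n = 5). Dio1 was higher in T4 than in vehicle livers by 1.44 ± 0.32 on the log2 scale (edgeR adjusted p = 0.041), so that its T4 mean lay between both other groups. The T4 and vehicle ranges overlapped, with 18.8 CPM in the lowest T4 liver and 19.3 CPM in the highest vehicle liver. Calls between T4 and vehicle livers were few and changed with single animals, as given below.

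Across 17057 genes tested, 604 (3.54%) differed between T4 and control livers at an adjusted p under 0.05, of which 312 were higher (1.83%) and 292 lower (1.71%) after T4. The levels of 307 genes (1.80%) did not overlap between the libraries of both groups. In the same fit, 1642 genes (9.63%) differed between vehicle and control livers, 839 higher (4.92%) and 803 lower (4.71%), and 70 (0.41%) between T4 and vehicle livers, 36 higher (0.211%) and 34 lower (0.199%). With the library total alone as the scale, 352 genes were higher and 229 lower in T4 than in control livers, and 58 higher and 26 lower in T4 than in vehicle livers. The split against control leaned the other way with no filter on low counts (97 higher, 210 lower) and without control animal 49 (60 higher, 105 lower). The 70 calls between T4 and vehicle livers were 14, 16 and 18 without vehicle animals 55, 37 and 38, 1 without the libraries with raised acinar or muscle genes, and 235 with DESeq2. These comparisons share libraries, so they are set side by side and their overlap is not given as a result. The number of T4 calls was sensitive to single animals. It was 165 without control animal 49, 216 without 50, 302 without 42 and 388 without 59. It was 1024 without T4 animal 40, and 386, 378, 350 and 372 without T4 animals 46, 69, 70 and 71. It was 413 with sex as a covariate, 111 with sex and muscle level as covariates, and 86 without the libraries with raised acinar or muscle genes. Of those 111 and 86 genes, 102 and 77 were among the 604. Within the female livers (2 T4 and 4 control) 7 genes were called, Dio1, Dlk1, Col25a1 and Angptl2 among them. Within the male livers (6 T4 and 1 control) edgeR called 0 genes, with 812 at an unadjusted p under 0.05.

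**Figure D1:**
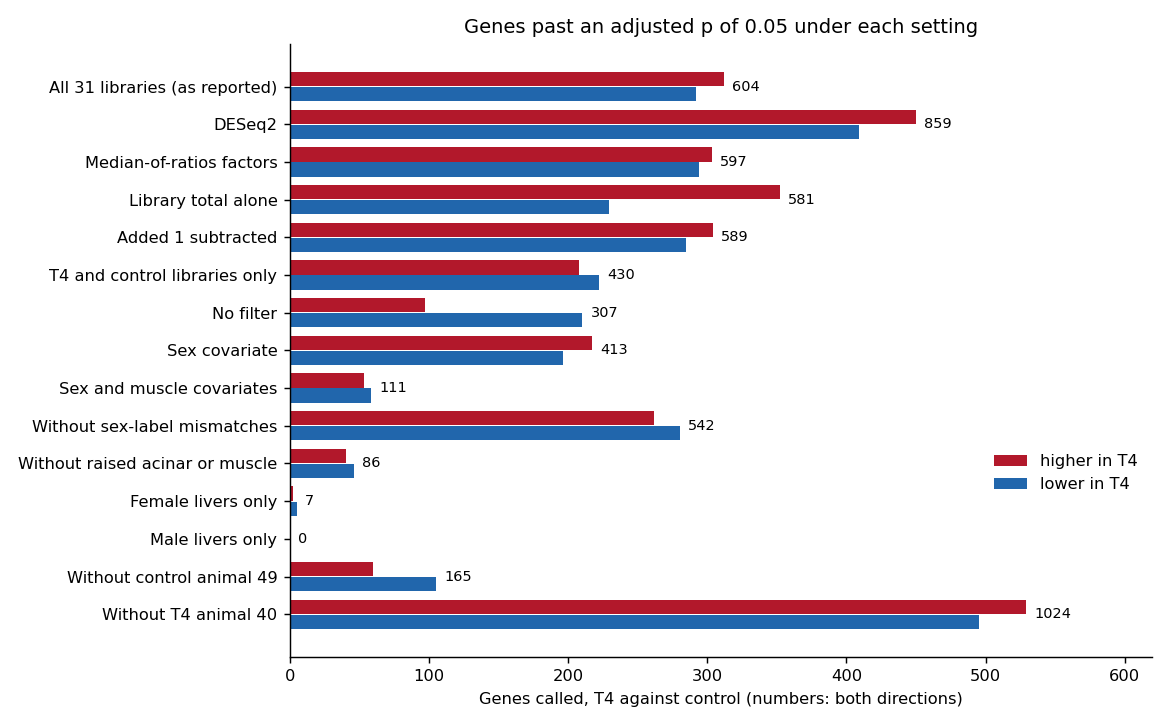
Number of genes called between T4 and control livers (x axis, from 0) under each setting (y axis), with red bars for genes higher in T4 livers, blue bars for genes lower, and the total of both printed beside them. The total was 604 as reported, 1024 without T4 animal 40, 165 without control animal 49 and 86 without the libraries with raised acinar or muscle genes.

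The largest falls among genes called, with a mean of at least 5 CPM and no overlap between the groups, were in the pancreatic-type alpha-amylase cluster of chromosome 3, whose coding members encode starch-digesting enzymes. Amy2b, 1 of its genes named here, is annotated as an unprocessed pseudogene. Of 8 genes annotated between 113147656 and 113606699 (mm10, GENCODE M21), 7 were tested and 6 were lower after T4, with log2 fold changes from -3.82 to -3.31. Over all genes tested, 1.71% were lower. Amy2a1 (ENSMUSG00000070360) had 1.05, 1.73 and 4.68 CPM as its lowest, median and highest value in T4 livers, against 19.6, 12.9, 56.9, 35.7 and 25.5 CPM in control livers. Even the highest T4 liver was below the lowest control liver. Its log2 fold change was -3.82 ± 0.46 (edgeR adjusted p = 3.66e-05). The vehicle mean of Amy2a1 was 2.17 ± 2.06 CPM (SD, n = 5), the same as the T4 mean of 2.17 ± 1.26 CPM (SD, n = 8), and their difference was -0.07 ± 0.61 on the log2 scale. Amy2a1 averaged 15.1 ± 12.5 CPM after T3 (SD, n = 6) and 32.0 ± 9.04 CPM after T3+T4 (SD, n = 7).

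Amy2a4, Amy2a2, Amy2a3, Amy2a5 and Amy2b averaged 5.62, 5.79, 6.06, 6.26 and 1.52 CPM in T4 livers and 60.8, 62.1, 62.1, 62.4 and 15.0 CPM in control livers, with edgeR adjusted p from 0.000125 to 0.000501. These 6 genes are paralogs, and how the counting split reads among them is uncertain, so they are not independent findings. Amy1, the salivary-type gene that the liver also expresses and the last of the tested 7, averaged 183 ± 16.5 CPM in T4 and 204 ± 22.2 CPM in control livers and was not called (log2 fold change -0.16 ± 0.08, edgeR adjusted p = 0.23). Amylases are also acinar genes. Over the 11-gene acinar list the summed level was 16.4 to 37.7 CPM in T4 livers and 66.2 to 133 CPM in control livers, with Pnlip and Try4 at the table's lowest value in every T4 library. Of its 9 tested members 2 were lower, against 1.71% over all genes tested. They were Amy2a5 and Cela1, an elastase gene that averaged 11.9 ± 2.53 CPM in T4 and 19.8 ± 1.22 CPM in control livers (log2 fold change -0.74 ± 0.15, edgeR adjusted p = 0.0049). Amy2a5 and Cela1, at means of 62.4 and 19.8 CPM in control livers, are part of that summed level. The other 7 tested members were not called. All 9 log2 fold changes were below 0, with a list median of -2.11, and without control animal 47 the median was 0.07 over 10 tested members, with the same count of 2 lower. Without the libraries with raised acinar or muscle genes, the 6 amylase genes kept their calls, with a log2 fold change of -3.76 ± 0.57 for Amy2a1 (edgeR adjusted p = 0.00613). Cela1 lost its call there (-0.64 ± 0.15, edgeR adjusted p = 0.0715). Within either sex the amylase genes were not called, with Amy2a1 at -4.19 ± 0.95 in female livers (edgeR adjusted p = 0.16) and -3.49 ± 0.50 in male livers (edgeR adjusted p = 0.0937).

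Promoter sequence is shown for the genes of the largest falls and rises and for Dio1. Each is RefSeq sequence on GRCm38.p6, 250 bases before to 50 after the start, written along the gene's strand. Capitals mark AGGTCA, the half-site that thyroid hormone receptors and other nuclear receptors bind, which was searched on both strands as AGGTCA or TGACCT. Of 32851 promoters of this length, 5340 (16.3%) held it. Amy2a1 (chr3:113532379-113532678, minus strand) and Amy2a4 (chr3:113291400-113291699, minus strand) held 1 half-site, at position 164 from the first base. The promoters of Amy2a2, Amy2a3 and Amy2a4 were identical, and that of Amy2a1 matched Amy2a4 in 291 of 302 aligned columns. The promoter of Amy2a5 matched that of Amy2a4 in only 162 of 438 aligned columns. Dio1 (chr4:107307119-107307418, minus strand), Dlk1 (chr12:109452573-109452872, plus strand) and Asprv1 (chr6:86627924-86628223, plus strand) held none of these letters in the window. A match here is a description of sequence only.
Amy2a1: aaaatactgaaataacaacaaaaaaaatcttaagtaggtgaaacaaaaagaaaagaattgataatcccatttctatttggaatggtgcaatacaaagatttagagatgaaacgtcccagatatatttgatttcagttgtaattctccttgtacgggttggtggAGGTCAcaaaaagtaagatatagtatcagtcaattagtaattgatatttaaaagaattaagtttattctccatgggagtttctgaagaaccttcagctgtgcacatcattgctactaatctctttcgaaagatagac
Amy2a4: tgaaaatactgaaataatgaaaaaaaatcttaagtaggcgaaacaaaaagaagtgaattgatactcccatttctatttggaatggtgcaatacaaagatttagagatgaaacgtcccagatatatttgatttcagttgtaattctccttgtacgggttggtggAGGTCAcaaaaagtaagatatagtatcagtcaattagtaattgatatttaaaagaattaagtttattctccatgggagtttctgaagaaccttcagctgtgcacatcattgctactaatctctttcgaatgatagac
Dio1: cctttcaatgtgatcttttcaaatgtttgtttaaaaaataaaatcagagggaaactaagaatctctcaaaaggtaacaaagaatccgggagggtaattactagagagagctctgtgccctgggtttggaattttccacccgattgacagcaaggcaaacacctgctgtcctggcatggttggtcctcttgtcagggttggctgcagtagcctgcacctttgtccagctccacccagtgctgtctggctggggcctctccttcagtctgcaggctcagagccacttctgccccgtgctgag
Dlk1: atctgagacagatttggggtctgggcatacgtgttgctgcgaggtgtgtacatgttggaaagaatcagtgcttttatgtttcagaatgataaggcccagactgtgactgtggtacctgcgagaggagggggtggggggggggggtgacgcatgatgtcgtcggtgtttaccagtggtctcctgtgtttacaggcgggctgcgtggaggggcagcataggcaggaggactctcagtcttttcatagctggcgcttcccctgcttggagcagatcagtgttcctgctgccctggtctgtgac
Asprv1: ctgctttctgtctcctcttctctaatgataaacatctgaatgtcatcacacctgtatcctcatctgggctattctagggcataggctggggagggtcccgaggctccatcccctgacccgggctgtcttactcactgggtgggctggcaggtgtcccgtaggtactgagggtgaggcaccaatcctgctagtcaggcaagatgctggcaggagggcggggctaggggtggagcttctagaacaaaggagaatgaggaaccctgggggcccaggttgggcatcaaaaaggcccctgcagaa

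Basement membrane and matrix genes were also among the falls. Col4a3 (ENSMUSG00000079465) and Col4a4 (ENSMUSG00000067158), which encode the alpha3 and alpha4 chains of type IV collagen, start 72 bases apart on opposite strands of chromosome 1. Col4a3 had 1.84, 2.51 and 5.30 CPM as its lowest, median and highest value in T4 livers, against 18.3, 8.80, 56.9, 33.1 and 13.9 CPM in control livers. The groups did not overlap, which the rule for the largest falls required, and control animal 49 was the highest. Its log2 fold change was -3.22 ± 0.56 (edgeR adjusted p = 0.00156). Col4a4 averaged 3.46 ± 0.551 CPM in T4 livers (SD, n = 8) and 12.1 ± 6.92 CPM in control livers (SD, n = 5), a log2 fold change of -1.79 ± 0.41 (edgeR adjusted p = 0.015), and its call was lost without control animal 49. Both were close to vehicle, which averaged 2.42 and 2.83 CPM for Col4a3 and Col4a4, with T4 over vehicle at 0.20 ± 0.74 and 0.29 ± 0.48 on the log2 scale. Of 21 collagen and matrix genes 3 were lower and 0 higher, against 1.71% lower and 1.83% higher over all genes tested (list median 0.00, against 0.008). The other was Lama2, a laminin chain gene, which fell by 0.79 ± 0.17 on the log2 scale (edgeR adjusted p = 0.00763), while Col4a1 and Col4a2, the major type IV chains, had log2 fold changes of -0.09 ± 0.11 and -0.14 ± 0.09 and were not called.

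Outside the amylases and collagens, Sprn, which encodes a relative of the prion protein, fell and averaged 3.70 ± 2.24 CPM in T4 and 14.0 ± 3.44 CPM in control livers (log2 fold change -1.92 ± 0.34, edgeR adjusted p = 0.00199). The next falls by the same criteria, added after their values were seen, were Erbb4, a neuregulin receptor gene (-1.55), E2f8, a cell-cycle transcription factor gene (-1.52), Angptl2, an angiopoietin-like secreted protein gene (-1.46), Wnt4, a Wnt ligand gene (-1.40), Sned1, an extracellular matrix glycoprotein gene (-1.38), and Ube2t, a ubiquitin-conjugating enzyme gene (-1.13). Angptl2 had 20.6, 25.8 and 55.4 CPM as its lowest, median and highest value in T4 livers, against 87.7, 84.1, 83.1, 89.6 and 74.1 CPM in control livers (edgeR adjusted p = 0.000299). The control livers were close together. They were all above the T4 livers, which the criteria required. Sned1 averaged 26.5 ± 8.98 CPM in T4, 11 ± 3.45 CPM in vehicle and 68.9 ± 10.4 CPM in control livers. It was lower in T4 than in control livers (edgeR adjusted p = 0.000501) and higher in T4 than in vehicle livers (log2 fold change 1.26 ± 0.26, edgeR adjusted p = 0.0261). Calls between T4 and vehicle livers changed with single animals, as given above. Wnt4 averaged 6.59 ± 2.62 CPM in T4, 4.06 ± 0.886 CPM in vehicle and 17.4 ± 1.55 CPM in control livers. The calls of Erbb4 and Ube2t were lost without several single libraries, in 4 and 11 of the 18 left out.

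Dlk1 (ENSMUSG00000040856), an imprinted gene of fetal hepatoblasts, was the largest rise among genes called, with a mean of at least 5 CPM and no overlap between the groups. It had 14.5, 59.8 and 96.4 CPM as its lowest, median and highest value in T4 livers, against 2.57, 10.7, 3.75, 4.46 and 6.48 CPM in control livers. Every T4 liver exceeded every control liver, with T4 animal 40 the lowest. The log2 fold change was 3.34 ± 0.42 (edgeR adjusted p = 4.06e-05), and vehicle livers averaged 58.1 ± 15.7 CPM, against 57.5 ± 25.1 CPM after T4. The difference between T4 and vehicle was -0.01 ± 0.32 on the log2 scale. Dlk1 averaged 33.5 ± 12.5 CPM after T3 (SD, n = 6) and 29.3 ± 10.9 CPM after T3+T4 (SD, n = 7). On chromosome 12, 96 genes are annotated from Dlk1 to Dio3 (109452823 to 110281097, mm10), and 5 of them passed the filter on low counts, Dlk1, Meg3, Rian, Mirg and Dio3. This region was chosen after its values were seen. The log2 fold change was above 0 for all 5 and 4 were called, against 1.83% called higher over all genes tested. They were Dlk1 and the maternally expressed noncoding RNA genes Meg3 (1.14 ± 0.29, edgeR adjusted p = 0.0258), Rian (1.09 ± 0.32, edgeR adjusted p = 0.0496) and Mirg (1.84 ± 0.38, edgeR adjusted p = 0.00629). Dio3, the gene of the deiodinase that inactivates T4 and T3, averaged 9.34 ± 4.59 CPM in T4 and 5.64 ± 2.53 CPM in control livers and was not called (0.72 ± 0.37, edgeR adjusted p = 0.274). Meg3 had 27.3, 66.0 and 93.8 CPM as its lowest, median and highest value in T4 livers, against 58.0, 24.9, 22.5, 23.9 and 22.5 CPM in control livers. The groups overlapped through control animal 42, and the Meg3 call was lost without any 1 of the other control animals or without T4 animal 71.

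Of 15 tested fetal and neonatal liver genes, 13 were above 0 (list median 0.39, against 0.008 over all genes). Of the 15, 3 were called higher and 0 lower, against 1.83% higher and 1.71% lower over all genes tested. The third was Plagl1, an imprinted zinc finger gene, with 91.9 ± 27.8 CPM in T4, 91.0 ± 12.9 CPM in vehicle and 48.8 ± 8.81 CPM in control livers (log2 fold change 0.91 ± 0.20, edgeR adjusted p = 0.0113). Afp, the alpha-fetoprotein gene, averaged 299 CPM in T4 and 195 CPM in control livers and was not called (0.61 ± 0.23, edgeR adjusted p = 0.128). H19 and Igf2 had log2 fold changes of 0.01 ± 0.10 and -0.02 ± 0.25. Without the libraries with raised acinar or muscle genes, and with sex and muscle as covariates, 1 of the 15 was called, Dlk1. Over all genes tested, 86 and 111 were called in these settings, against 604 as reported. Plagl1 was at 0.90 in both settings, and Meg3 at 0.92 without those libraries and 0.94 with the covariates.

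**Figure D2:**
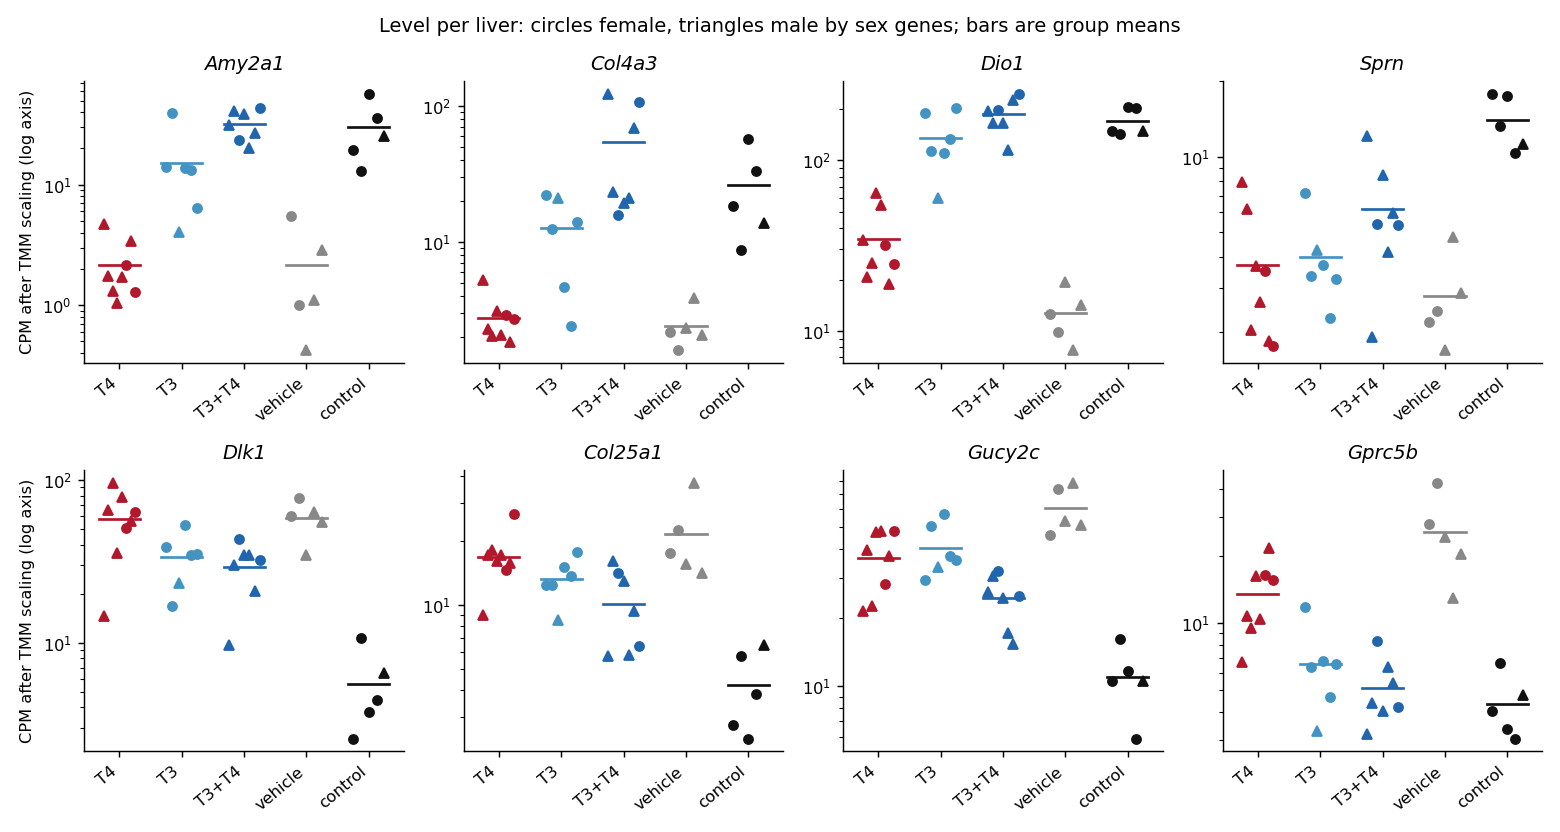
Level of 8 genes in every liver (y axis, CPM on a log scale) by group (x axis, T4, T3, T3+T4, vehicle and control), with circles for female and triangles for male livers and bars for group means. All 8 are among the largest changes, which were chosen for no overlap between T4 and control livers. Their separation in the plot follows from that choice. The T4 mean is close to the vehicle mean for Amy2a1, Col4a3 and Dlk1 (57.5 against 58.1 CPM for Dlk1).

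The other rises by the same rule were Asprv1, Olfm4, Cntnap1, Col25a1, Fam83a, Mmp9, Gucy2c, Slpi and Gprc5b, with log2 fold changes from 2.91 for Asprv1 to 1.61 for Gprc5b. Gucy2c, the guanylate cyclase receptor of the intestinal epithelium, had 21.4, 38.6 and 48.1 CPM as its lowest, median and highest value in T4 livers, against 10.5, 16.1, 11.7, 5.88 and 10.5 CPM in control livers. All T4 livers were above all control livers, which that rule required. Its log2 fold change was 1.74 ± 0.25 (edgeR adjusted p = 0.000163), and vehicle livers averaged 60.7 ± 14.5 CPM. Col25a1, a transmembrane collagen gene, averaged 16.8 ± 4.88 CPM in T4, 21.4 ± 9.48 CPM in vehicle and 4.24 ± 1.81 CPM in control livers (T4 over control 1.98 ± 0.31, edgeR adjusted p = 0.000551). Gprc5b, an orphan G protein-coupled receptor gene, averaged 13.4 ± 4.92 CPM in T4, 25.6 ± 11 CPM in vehicle and 4.36 ± 1.42 CPM in control livers (1.61 ± 0.32, edgeR adjusted p = 0.0049). Its T4 mean lay between both, and T4 over vehicle was -0.93 ± 0.27 on the log2 scale (edgeR adjusted p = 0.113). Fam83a averaged 8.95 ± 2.97 CPM in T4, 8.67 ± 3.89 CPM in vehicle and 2.31 ± 0.882 CPM in control livers, and Slpi, a leukocyte protease inhibitor gene, 8.43 ± 3.54, 11.8 ± 3.40 and 2.70 ± 0.964 CPM in T4, vehicle and control livers.

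In some rises the T4 livers were far apart. Asprv1, an aspartic protease gene of skin, reached 34.9 CPM in T4 animal 54, with 2.44 to 12.1 CPM in the other T4 livers and 1.28, 1.35, 1.18, 1.22 and 1.33 CPM in control livers (log2 fold change 2.91 ± 0.62, edgeR adjusted p = 0.00976). The Asprv1 call held in 18 of 18 settings that left out 1 library, and without the raised libraries its log2 fold change was 1.95 ± 0.39 (edgeR adjusted p = 0.0338). The call was lost with sex and muscle as covariates (1.54 ± 0.58, edgeR adjusted p = 0.187). It was also lost in female livers alone (2.79 ± 0.71, edgeR adjusted p = 0.214). Cntnap1, an axonal contact protein gene, had 64.9 and 52.9 CPM in T4 animals 43 and 46 and 5.66 to 10.4 CPM in the other 6, against 3.04 to 5.42 CPM in control livers (2.28 ± 0.65, edgeR adjusted p = 0.0467). Olfm4, an olfactomedin gene of intestinal crypts and neutrophils, had 2.44, 5.90 and 21.1 CPM as its lowest, median and highest value in T4 livers and a mean of 1.73 ± 0.714 CPM in control livers (2.39 ± 0.67, edgeR adjusted p = 0.0443). The calls of Olfm4 and Cntnap1 held in 8 of 18 settings that left out 1 library, and that of Mmp9 in 10. The next rises, added after their values were seen, were Myom1, a sarcomere gene (1.49), Ugt1a9, a glucuronosyltransferase gene with exons shared within its family (1.20), Kank4 (1.10), Lilrb4, a myeloid receptor gene (1.09), Ggt5, a glutamyltransferase gene (0.98), and Cyp2c67, a cytochrome P450 gene with close paralogs (0.97). Cyp2c67 averaged 146 ± 26.4 CPM in T4, 203 ± 42.6 CPM in vehicle and 74.8 ± 19.3 CPM in control livers (edgeR adjusted p = 0.00177). Ugt1a9 averaged 49.4 ± 11.3 CPM in T4, 107 ± 19 CPM in vehicle and 21.4 ± 6.08 CPM in control livers, and its call held in 3 of the 18 settings. T4 animal 40 was the T4 liver nearest to the control mean in 14 of the 20 largest changes. These 20 include the 6 amylase genes and the adjacent Col4a3 and Col4a4, so they are not independent counts.

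**Figure D3:**
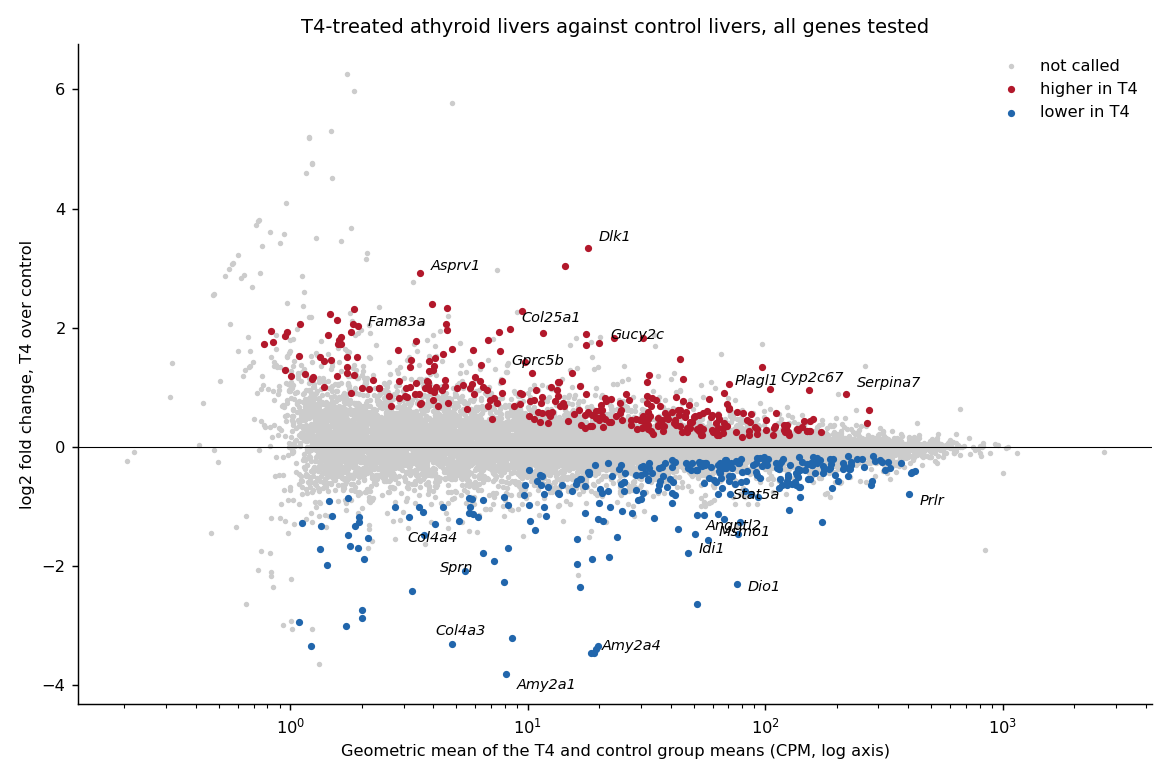
Log2 fold change of T4 over control livers (y axis) against the geometric mean of both group means in CPM (x axis, log scale) for the 17057 genes tested, with 312 genes higher in T4 livers in red, 292 lower in blue and the rest in grey. Dlk1 at 3.34 and Amy2a1 at -3.82 are the outermost of the named genes, and most called genes differ by less than these.

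Of 17 genes that thyroid hormone is known to induce in liver, 1 was lower (Dio1) and 0 higher, against 1.71% lower and 1.83% higher over all genes tested. The list median was -0.29, against 0.008 over all genes. Thrsp, a regulator of fatty acid synthesis, averaged 7.74 CPM in T4, 2.87 CPM in vehicle and 34.3 CPM in control livers and was not called (-2.16 ± 0.65, edgeR adjusted p = 0.0579). Me1, the malic enzyme gene, averaged 56.8, 28.4 and 74.4 CPM in T4, vehicle and control livers (-0.38 ± 0.33, edgeR adjusted p = 0.557). Gpd2, the mitochondrial glycerophosphate dehydrogenase gene, averaged 194, 89.7 and 242 CPM in the same groups (-0.32 ± 0.28, edgeR adjusted p = 0.56). A p that misses the threshold does not show that these genes equal the control level. Of 25 tested genes of hormone transport, receptors and coregulators, 1 was higher and 0 lower, against the same shares over all genes. Serpina7, which encodes T4-binding globulin, averaged 297 ± 37.4 CPM in T4, 393 ± 55.7 CPM in vehicle and 161 ± 57.3 CPM in control livers (0.88 ± 0.24, edgeR adjusted p = 0.0401). Its groups overlapped, and the call held in 9 of 18 settings that left out 1 library. Thrb, the main hepatic receptor gene, had a log2 fold change of -0.07 ± 0.11.

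Cholesterol synthesis and uptake was the list with most calls. Of 26 genes, 9 were lower and 0 higher, against 1.71% lower and 1.83% higher over all genes tested, with a list median of -0.56 and 1 gene above 0. They were Sqle (-1.85), the squalene epoxidase gene, Idi1 (-1.79), the isopentenyl diphosphate isomerase gene, Msmo1 (-1.56), a sterol methyl oxidase gene, Cyp51 (-1.26), Fdps (-1.21), Nsdhl (-1.12), Hmgcs1 (-0.65), Srebf2 (-0.57), the transcription factor gene of the pathway, and Sc5d (-0.39). Msmo1 had 20.2, 33.5 and 47.7 CPM as its lowest, median and highest value in T4 livers, against 49.2, 39.1, 131, 166 and 109 CPM in control livers (edgeR adjusted p = 0.00763). Control animals 49, 50 and 59 were well above the rest, and control animal 47 lay within the T4 range. Idi1 showed the same arrangement, with 15.2 to 38.7 CPM in T4 livers and 39.5, 25.2, 133, 170 and 73.4 CPM in control livers (edgeR adjusted p = 0.0155). Vehicle livers averaged 26.7 CPM of Msmo1 and 18.8 CPM of Idi1, against 33.3 and 25.4 CPM in T4 livers. Of the 26 genes, 11 were lower in vehicle than in control livers (median -0.75), against 4.71% of all genes tested in that comparison. T4 over vehicle had a list median of 0.11, with 1 higher and 0 lower, against 0.211% higher and 0.199% lower over all genes tested. The 9 calls of T4 against control fell to 1 without control animal 49 or 50 and to 4 with sex as a covariate. They fell to 1 without the libraries with raised acinar or muscle genes and to 0 with sex and muscle as covariates. Calls over all genes tested fell too, from 604 to 165, 216, 413, 86 and 111 in these settings, in the order given. The list median stayed between -0.74 and -0.40 in these settings.

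Other metabolic lists held 0 to 2 calls each, against 1.71% of all genes tested lower and 1.83% higher. Of 21 lipogenesis genes 1 was lower, Fasn, the fatty acid synthase gene, with 108 ± 23.2 CPM in T4, 71.0 ± 15.8 CPM in vehicle and 168 ± 30.9 CPM in control livers (-0.64 ± 0.18, edgeR adjusted p = 0.0443). The Fasn call held in 8 of 18 settings that left out 1 library. Of 9 NADPH and pentose phosphate genes 1 was lower, Rpe, an epimerase gene (-0.38 ± 0.09, edgeR adjusted p = 0.0252). Of 19 bile acid and sterol export genes 2 were lower, Abcb11, the bile salt export pump gene (353 ± 39.8 CPM in T4 and 481 ± 41.1 CPM in control livers, edgeR adjusted p = 0.00839), and Cyp2c70, which makes muricholic acids in mice (-0.57 ± 0.13, edgeR adjusted p = 0.0172). Of 37 drug metabolism genes 1 was higher, Cyp2c54 (1.33 ± 0.37, edgeR adjusted p = 0.0448), a call that held in 9 of the 18 settings. With edgeR, 0 genes were called among 29 of fatty acid oxidation and ketogenesis (median 0.11, 26 above 0), 21 of gluconeogenesis and glycogen (-0.01), 21 of the urea cycle (0.01), 28 of the respiratory chain (-0.07), 13 of the Akr1c and steroid list (-0.09), 19 of the clock (0.09), 19 of the acute phase (0.05), 27 of coagulation (-0.07) and 18 of stress responses (0.12). Of 16 immediate early genes 1 was higher, Ier3 (0.78 ± 0.21, edgeR adjusted p = 0.0411). The Ier3 call held in 9 of 18 settings that left out 1 library and was lost with sex as a covariate.

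The growth hormone and prolactin list held 3 lower genes of 17 and 0 higher (list median -0.15), against 1.71% lower and 1.83% higher over all genes tested. Stat5a, which carries the signal of both receptors, had 46.1, 51.3 and 60.1 CPM as its lowest, median and highest value in T4 livers, against 71.2, 86.0, 92.4, 97.5 and 73.9 CPM in control livers. The groups did not overlap. The log2 fold change of Stat5a was -0.70 ± 0.13 (edgeR adjusted p = 0.00196), and vehicle livers averaged 35.4 ± 4.11 CPM. Stat5b, its close paralog, had a log2 fold change of -0.37 ± 0.08 (edgeR adjusted p = 0.0122). Prlr, the prolactin receptor gene, averaged 306 ± 92.6 CPM in T4 and 530.0 ± 72.2 CPM in control livers (-0.79 ± 0.20, edgeR adjusted p = 0.0252). Igf1, the main endocrine target of growth hormone in liver, averaged 853 CPM in T4 and 1170 CPM in control livers and was not called (-0.45 ± 0.17, edgeR adjusted p = 0.129). With sex and muscle as covariates 0 of the 17 were called, with Stat5a at -0.59, Stat5b at -0.37 and Prlr at -0.99. Without the raised libraries 1 was called, Stat5a at -0.68, with Stat5b at -0.38 and Prlr at -0.92. Over all genes tested, 111 and 86 were called in these settings, against 604 as reported. Cell cycle genes held 0 calls of 24 by edgeR, although all 24 log2 fold changes were below 0 (median -0.42). Mki67, a proliferation marker, averaged 136 CPM in T4, 103 CPM in vehicle and 234 CPM in control livers (-0.79 ± 0.37, edgeR adjusted p = 0.23).

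**Figure D4:**
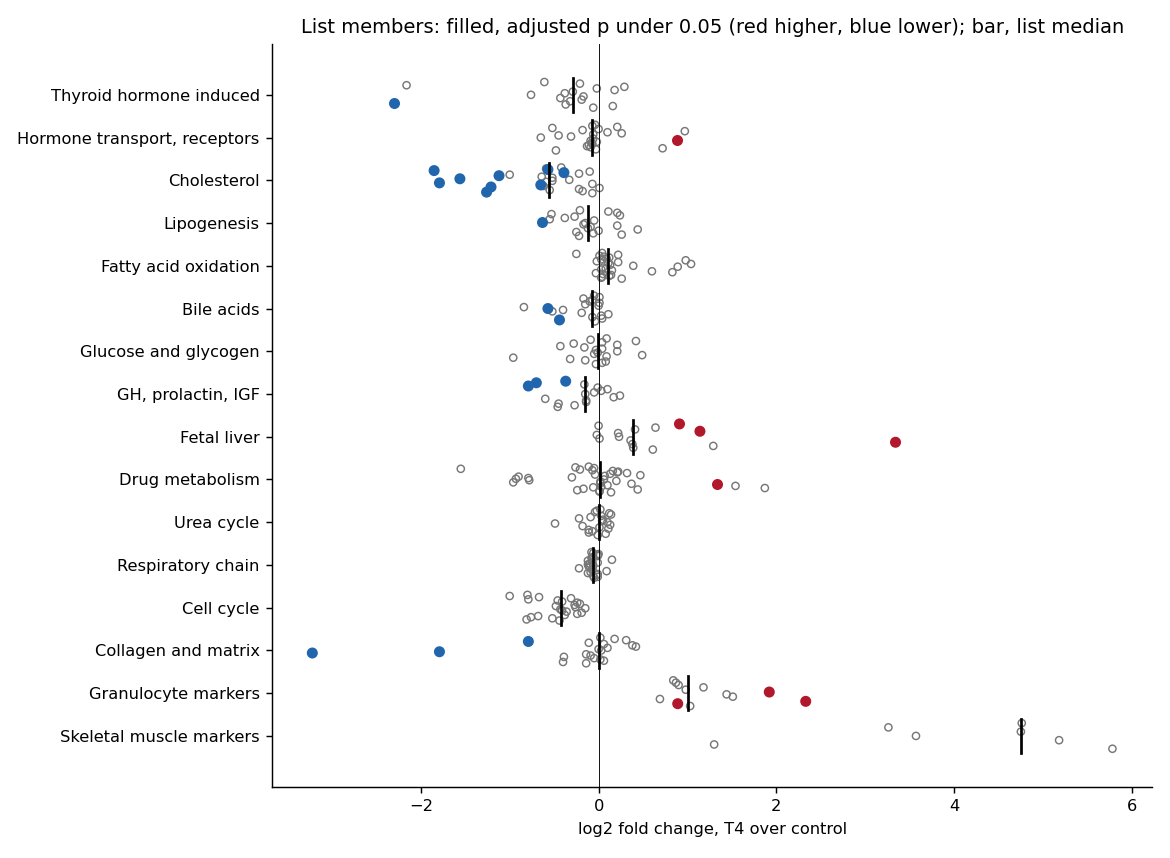
Log2 fold change of T4 over control livers (x axis) for each tested member of 16 gene lists (y axis), with filled points for genes called (red higher, blue lower), open points for the rest and black bars for list medians. The cholesterol list holds 9 filled points, all below 0, and the skeletal muscle list lies at a median of 4.75 with 0 filled points.

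Besides the acinar markers given with the amylases, 2 other marker lists differed. Granulocyte markers were higher on average in T4 than in control livers, and skeletal muscle markers were raised in some T4 livers only. All 12 tested granulocyte markers were above 0 (list median 1.01, against 0.008 over all genes). Of them 3 were higher and 0 lower, against 1.83% higher and 1.71% lower over all genes tested. They were Cxcr2, a neutrophil chemokine receptor gene, with 10.3 ± 6.81 CPM in T4 and 2.03 ± 0.514 CPM in control livers (2.33 ± 0.46, edgeR adjusted p = 0.00493), Mmp9, a gelatinase gene (1.92 ± 0.51, edgeR adjusted p = 0.0356), and Csf3r, the receptor gene of granulocyte colony-stimulating factor (0.89 ± 0.24, edgeR adjusted p = 0.0403). The summed level of the 13 granulocyte markers was 115 to 524 CPM in T4 livers and 58.4 to 170.0 CPM in control livers, highest in T4 animals 54, 58 and 71, and none of the markers was at the table's lowest value in every library of a group. Vehicle livers were similar to T4 livers. Of the 12, 3 were also higher in vehicle than in control livers (median 0.98), against 4.92% of all genes tested in that comparison. T4 over vehicle had a list median of 0.11 with 0 called, against 0.41% of all genes tested. Cxcr2, Mmp9 and Csf3r averaged 13.1, 13.3 and 28.1 CPM in vehicle livers, against 10.3, 14.7 and 24.0 CPM in T4 livers. The Csf3r call against control held in 10 of 18 settings that left out 1 library and was lost with sex as a covariate. In bulk tissue, a change in the number of cells of a type and a change in RNA per cell cannot be told apart. Without the raised libraries, which include T4 animals 54 and 71, 0 of 12 were called and the median was 0.47. Over all genes tested, 86 were called in that setting, against 604 as reported. The part of granulocytes in the rises of Asprv1, Olfm4, Mmp9 and Slpi was not tested. Of 7 tested skeletal muscle genes edgeR called 0 (median 4.75), with summed levels of 2.82 to 255 CPM in T4 and 2.57 to 3.81 CPM in control livers. T4 animals 43 and 46, at 2.82 and 3.16 CPM, lay within the control range, and T4 animal 40, at 3.87 CPM, just above it. Tnnc2 was at the lowest value in every T4 library, and Ckm, Myh4 and Tnnc2 in every control library. The part of muscle in the rise of Myom1 was not tested, and the Myom1 call held in 8 of 18 settings that left out 1 library. Of 13 stellate and mesenchymal markers 1 was higher, Vim (0.44 ± 0.09, edgeR adjusted p = 0.00876), and 1 lower, Lrat (-0.59 ± 0.17, edgeR adjusted p = 0.0443). The Lrat call held in 7 of 18 settings that left out 1 library and was lost with sex as a covariate. With edgeR, 0 genes were called among 10 erythroid, 11 Kupffer, 12 lymphocyte, 12 endothelial, 6 cholangiocyte and 5 sex-linked genes. Over all genes tested, 3.54% were called.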

How the data were processed

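Liver RNA of 31 pups was sequenced. Per the labels' protocols, 1 ug of TRIzol-extracted RNA (integrity number 7.5 or higher) was used for stranded poly(A) libraries. The authors deposited raw counts, as whole numbers, for 43629 genes. No entry is below 1, and 50.1% equal 1, which points to 1 having been added at a step not given. Per the submitters' processing notes the tools include BWA 0.7.10, Trimmomatic and DESeq, and the build is GRCh38, a human build, whereas the column names state mm10. The counting tool and its use of strand are not given in the sources used here. Positions came from GENCODE M21 (97.5% of IDs).

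Counts were tested as deposited with edgeR 4.0.16 (TMM scaling, filterByExpr, glmQLFit and glmQLFTest, R 4.3.3), in a single fit of all 31 libraries by group. Calls used a Benjamini-Hochberg adjusted p under 0.05. Log2 fold changes carry their SE, and levels are mean ± SD in CPM after TMM scaling. On simulated data for T4 against control (17057 genes), changes of 0.5, 1 and 2 on the log2 scale were recovered in 39.7%, 77.3% and 95.5% of genes, with 2 false calls. The simulated counts were independent negative binomial draws with the same mean in every group, apart from genes changed in T4. They held no effect of sex, other tissue or outlying animals, so the false calls do not cover these. Named genes were Pax8, Dio1 and Dio2, the 10 largest rises and 10 largest falls among genes called, with a mean of at least 5 CPM and no overlap between T4 and control libraries (159 genes after leaving out unnamed, clone and -ps symbols, with no filter on annotated biotype), and up to 3 members called from each of 32 lists. The next-ranked genes in each direction and further list members were added after their values were seen. The members and lists were chosen with earlier results of these data known. Lists are described by counts and medians, and some members are not reported here by name. Sex was called from Xist and Ddx3y, Eif2s3y, Kdm5d and Uty. Alternatives were other scalings and filters, DESeq2 1.42.0, covariates and left-out libraries.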

Additional observations from a re-analysis of the deposited data

Results flagged for a closer look

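In 8 of 110 sets of values (the named genes in T4 and in control livers) 1 liver stood apart from the others of its group by a gap that chance gives in about 1 in 20 groups. Among T4 livers, animal 54 had 8.21 CPM of Dio2 (1.36 to 4.07 in the other 7) and 34.9 CPM of Asprv1 (2.44 to 12.1). T4 animal 40 had 5.30 CPM of Col4a3 (1.84 to 3.15 in the others), 18.9 CPM of Erbb4 (4.76 to 11.2) and 45.6 CPM of Sned1 (16.5 to 29.5), each toward the control level. Among control livers, animal 49 had 4.54 CPM of Kank4 (4.19 to 4.26), animal 50 had 20.1 CPM of Wnt4 (16.2 to 17.1) and animal 42 had 58.0 CPM of Meg3 (22.5 to 24.9).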

How the results depend on the processing

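For T4 against control (604 genes), the count was 307 with no filter on low counts, 8 in animals 37 to 50 only (3 male T4 and 4 female control livers, so that sex and group cannot be told apart; the calls were Uty, Kdm5d, Eif2s3y, Ddx3y, Xist, Gm29650, Fam210b and Dio1, with Dio1 the 1 gene also called in all livers), 0 in animals 54 to 85 only (1129 at an unadjusted p under 0.05, 5 T4 livers and 1 control liver), 86 without libraries with raised acinar or muscle genes, 7 in female livers, 0 in male livers and 111 with sex and muscle covariates. The last 4 were chosen after seeing the data. Leaving out 1 library gave 165 to 1024. The planned rule for acinar and muscle genes removed every control library and gave T4 against vehicle 0 calls by edgeR (1143 at an unadjusted p under 0.05). For vehicle against control (1642 genes), the count was 538 and 3 in the same animal ranges, 689 without the raised libraries, 505 in female and 2 in male livers, and 935 to 1699 with 1 library left out (935, 966 and 1011 without control 50, control 49 and vehicle 38). For T4 against vehicle (70 genes), it was 35 with no filter, 25 with the compared groups only, 235 with DESeq2, 8 in animals 54 to 85, 1 without the raised libraries, 17 in female and 5 in male livers, and 14 to 93 with 1 library left out (14, 16 and 18 without vehicle 55, 37 and 38, 31 to 38 without T4 animals 43, 58, 69, 70 or 71 or control 49). The cause of these changes was not tested, although the sex, animal range and left-out settings hold fewer libraries. In fits with 1 control liver, that liver is assumed to vary like the other groups.

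Of the 53 named genes called, 32 stayed called with each library left out in turn and 43 with sex as a covariate. With sex and muscle as covariates 21 stayed called, without the raised libraries 19 and with DESeq2 53. Under the alternatives run 0 changed sign. These genes were chosen as called in the same data, many of them for no overlap, so the lack of sign changes is no independent support. Genes with few counts are limited by depth, and the added 1 understates their folds. No paired analysis was possible because each animal number occurs in 1 group.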
